A study of Mus musculus with 9 samples.

Results

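The 9 genes described here encode the channels, carriers, pump subunit and receptor with which gland cells secrete watery fluid. They were picked by name out of 54232 genes in the count table, at a time when earlier results of these data were known. The members are the muscarinic receptor Chrm3, the carriers Slc12a2 and Slc4a4, the pump subunit Atp1b1, the chloride channels Ano1 and Cftr, the potassium channels Kcnn4 and Kcnma1, and the water channel Aqp5. All 9 had a row in the table, and 8 had enough counts for a test of age. Cftr did not.

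RNA was measured in whole lacrimal glands, the glands beside the eye that secrete the watery part of tears. All mice were C57BL/6J females with no transgene or treatment named, fed ad libitum under 12 h of light and 12 h of dark. The 9 libraries comprised 3 from 2-month-old, 3 from 12-month-old and 3 from 24-month-old mice, and sample titles write the youngest age as 8W. As its title says, the study was about ectopic lymphoid structures in aged glands. Whether a library holds RNA of 1 mouse or of several is not stated, so the p-values here reflect only how far these libraries differ from each other, which may be technical.

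In a secreting acinar cell, Na+/K+-ATPase keeps sodium low inside, and the sodium gradient drives chloride in through Slc12a2 at the basal side. Acetylcholine from parasympathetic nerves acts on Chrm3, which raises calcium in the cell. Calcium opens Ano1 at the apical side, so that chloride leaves into the lumen, and Kcnn4 and Kcnma1, whose potassium current keeps the driving force. Sodium follows between the cells and water follows through Aqp5. Slc4a4 brings bicarbonate in with sodium, and Cftr is a cAMP-gated chloride and bicarbonate channel known mainly from duct cells.

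Each library held 40516863 to 42573877 counts. All 12 lacrimal acinar markers on the list used here, Ltf, Lpo and Obp1a among them, had counts in every library, with a summed level of 162000 to 245000 CPM (counts scaled to library size, with TMM factors). Several libraries stood apart from the rest of their age. The sum of 11 salivary gland markers reached 812 CPM in replicate 3 of 2 months, 359 CPM in replicate 2 of 12 months and 244 CPM in replicate 2 of 24 months, against 0.399 to 69.2 CPM in the other libraries, and those 3 are called salivary-rich below. Of these markers Smgc and Klk1b22 had no count in any library. The sum of 8 skeletal muscle markers was 28.1 and 59.1 CPM in 12-month replicates 1 and 3 and 0.283 to 1.23 CPM elsewhere, and those 2 are called muscle-rich below. B and T cell markers summed to 1.97 to 5.01 CPM at 2 months, 25.8 to 177 at 12 months and 24.8 to 46.3 at 24 months. Macrophage markers summed to 62.0 to 91.3, 177 to 238 and 235 to 335 CPM in the same order. Of 10 adipocyte markers, 8 rose at 12 months and 9 at 24 months. The summed duct markers lay at 1030 to 1320 CPM in all 9 libraries. In whole gland RNA, fewer cells of a type and less RNA per cell cannot be told apart.

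Of the 8 members tested, 1 changed between 2 and 12 months (Kcnn4, higher), 4 between 2 and 24 months (Chrm3 and Ano1 higher, Kcnma1 and Atp1b1 lower) and 1 between 12 and 24 months (Kcnma1, lower). The background for these counts is the share of all 14944 tested genes that was called. It was 7.93% at 12 against 2 months (5.41% higher, 2.52% lower), 17.4% at 24 against 2 months (9.82% higher, 7.56% lower) and 4.39% at 24 against 12 months (1.6% lower). Genes were called at a Benjamini-Hochberg adjusted p under 0.05 in edgeR's quasi-likelihood test, with adjustment over all tested genes. For the 3 ages together 4 of 8 members were called (Kcnma1, Chrm3, Kcnn4 and Atp1b1), against 17.0% of all genes. The median log2 fold change of the 8 members was 0.12, 0.38 and -0.09 in the order of comparisons just given, and that of all tested genes was 0.01, 0.01 and -0.02. Without the 3 libraries rich in salivary transcripts, which leaves 2 libraries per age, edgeR called 0 of 8 members in any of these comparisons, with an unadjusted p under 0.05 for 2, 4 and 2 of them. There the log2 fold changes were 0.87 for Kcnn4 at 12 against 2 months, and 0.47 for Ano1, 0.44 for Chrm3, -0.37 for Kcnma1 and -0.69 for Atp1b1 at 24 against 2 months. Leaving them out also lowered the number of all genes called at 24 against 2 months from 2597 to 626. Values below are in CPM for replicates 1, 2 and 3 of an age, with mean ± SD over n = 3 libraries.

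**Figure D1:**
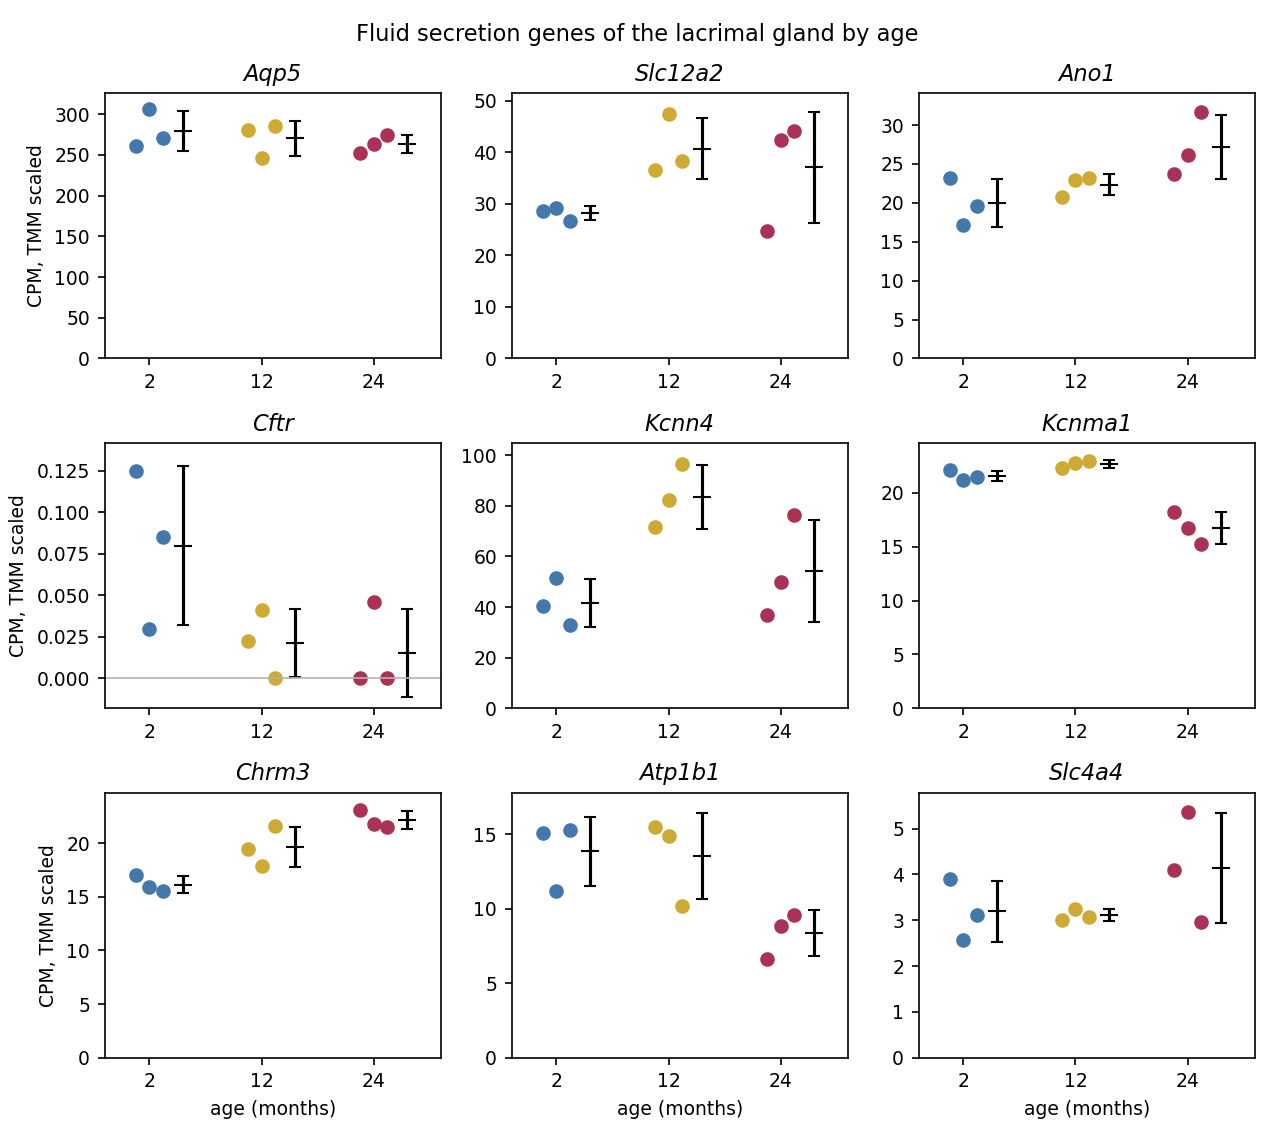
Levels of the 9 members in each library, in CPM scaled by TMM, at 2, 12 and 24 months, with 1 panel and 1 vertical scale per gene; dots are libraries and bars are the mean ± SD of 3. Aqp5 lies at 246 to 307 CPM at every age, Kcnn4 is highest at 12 months, and the 3 libraries of 24 months lie above those of 2 months for Chrm3 and Ano1 and below them for Kcnma1 and Atp1b1.

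Chrm3, the M3 muscarinic receptor through which acetylcholine starts secretion (ENSMUSG00000046159, chr13:9875486-10360847 on the minus strand of GRCm38), was higher at 24 than at 2 months. Its level was 17.0, 15.9 and 15.5 CPM at 2 months (mean 16.2 ± 0.795), 19.4, 17.9 and 21.6 at 12 months (mean 19.6 ± 1.84), and 23.1, 21.8 and 21.5 at 24 months (22.1 ± 0.839). The 3 young libraries lay below all 6 others, while those of 12 and 24 months overlapped. Libraries of 2 and 24 months did not overlap in 35.1% of all tested genes, those of 2 and 12 months in 27.5%, and those of 12 and 24 months in 24.7%. These shares are the background for every separation of ages of a gene given below. The share of genes with 24 months apart from both younger ages at once is not given. At 24 against 2 months the log2 fold change was 0.45 (SE 0.10, a fold of 1.37, adjusted p = 0.00839). That of 12 against 2 months was 0.28 (SE 0.10, adjusted p = 0.0965), and that of 24 against 12 months 0.17 (adjusted p = 0.354). The call of 24 against 2 months held in 19 of 20 alternative settings. It ended without the 3 libraries rich in salivary transcripts, where the log2 fold change was 0.44 (adjusted p = 0.102).

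Among 22 other receptors of secretory signals, 14 were tested, and 1 of them rose at 24 against 2 months with none falling. It was Chrm1, the M1 muscarinic receptor, at 1.77, 1.32 and 1.47 CPM at 2 months, 1.13, 1.82 and 1.8 at 12 months, then 3.69, 4.29 and 2.23 at 24 months. Its 24-month libraries all lay above the other 6, with a log2 fold change against 2 months of 1.16 (adjusted p = 0.0211). The adjusted p was 0.0832 without 2-month replicate 2, 0.0693 without 2-month replicate 3, 0.0518 without 24-month replicate 1 and 0.0831 without 24-month replicate 2. Without the 3 salivary-rich libraries the log2 fold change was 0.94 (adjusted p = 0.219). Against 12 months Chrm1 was called by DESeq2 (0.0073), by voom (0.0405) and without 24-month replicate 3 (0.0288), but not by edgeR on all libraries. Per kilobase Chrm1 stayed below Chrm3, at 0.174 to 0.661 RPKM against 2.48 to 3.69 RPKM for Chrm3 (RPKM, the CPM divided by the kilobases of exon). Vipr1, a receptor of vasoactive intestinal peptide, had a log2 fold change of 0.49 at 24 against 2 months (adjusted p = 0.068 by edgeR and 0.0416 by DESeq2). Adra1a, an adrenergic receptor, passed the test in no comparison. Nor did Gnaq, the G protein to which Chrm3 couples, which is counted with the calcium genes below.

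Downstream of the receptor, 25 of 29 genes of calcium release and entry were tested. At 12 against 2 months 2 rose and 0 fell, at 24 against 2 months 5 rose and 1 fell, and at 24 against 12 months 1 rose and 0 fell. The inositol trisphosphate receptors Itpr1, Itpr2 and Itpr3, which release the calcium store, and Orai1, the store-operated entry channel, were called in no comparison. Atp2a3, a calcium pump of the endoplasmic reticulum also known from lymphocytes, was higher at 24 than at 2 months by 1.25 on the log2 scale (adjusted p = 0.00692). Without the 3 salivary-rich libraries that value was 1.16 (adjusted p = 0.0631). Atp2a3 and the summed B and T cell markers were both higher at 24 than at 2 months, and the part of those cells in its level was not tested.

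Slc12a2, the Na-K-2Cl cotransporter that loads the cell with chloride (ENSMUSG00000024597, chr18:57878678-57946821, plus strand), passed the test in no comparison. Its level was 28.6, 29.2 and 26.6 CPM at 2 months (mean 28.1 ± 1.36), 36.5, 47.4 and 38.3 at 12 months (mean 40.7 ± 5.86), and 24.7, 42.3 and 44.2 at 24 months (37.1 ± 10.7). The 12-month libraries lay above all 3 young ones. At 24 months replicate 1 lay below the young libraries and the other 2 above them. Between 2 and 12 months its log2 fold change was 0.53 (95% interval 0.09 to 0.98, adjusted p = 0.0942), and that of 24 against 2 months was 0.40 (adjusted p = 0.15). Without 24-month replicate 1 these values were 0.53 (adjusted p = 0.011) and 0.62 (adjusted p = 0.00618), so that leaving out this library changed both calls. The 12-month difference was also called with library totals alone as the scale (adjusted p = 0.0431) and by DESeq2 (adjusted p = 0.0391).

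Slc12a2 is switched on by WNK kinases acting through SPAK. Of 13 genes of WNK and SPAK control 12 were tested, 0 were called at 12 against 2 months, 2 fell at 24 against 2 months and 1 fell at 24 against 12 months. Wnk2, a WNK kinase, fell by 0.85 on the log2 scale at 24 against 2 months (adjusted p = 0.00113) and by 0.86 against 12 months (adjusted p = 0.00193). The first of these calls held in all 20 alternatives, and the second ended without the 3 salivary-rich libraries (-0.73, adjusted p = 0.0767). Stk39, which encodes SPAK, the kinase that phosphorylates Slc12a2, had a log2 fold change of -0.28 at 24 against 2 months (adjusted p = 0.0872). Wnk1, another WNK kinase, was not called by edgeR, at a log2 fold change of 0.35 at 12 against 2 months (adjusted p = 0.0686) and 0.30 at 24 against 2 months (0.0802). It was called in both by DESeq2 (0.0287 and 0.0488), by voom (0.0417 and 0.0406), with library totals alone (0.0198 and 0.0226) and without 2-month replicate 1 (0.0207 and 0.0179).

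Slc4a4, the electrogenic sodium bicarbonate cotransporter (ENSMUSG00000060961, chr5:88886818-89239653, plus strand), was the second lowest member per kilobase and was called in no comparison. Its level was 3.89, 2.58 and 3.11 CPM at 2 months (mean 3.19 ± 0.655), 3.0, 3.25 and 3.07 at 12 months (mean 3.11 ± 0.128), and 4.09, 5.36 and 2.96 at 24 months (4.14 ± 1.2). The 3 ages overlapped. Its log2 fold change was -0.04 at 12 against 2 months (adjusted p = 0.943) and 0.37 at 24 against 2 months (adjusted p = 0.314).

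Other genes of basolateral chloride and acid-base loading numbered 23, of which 17 were tested. There 1 rose and 1 fell at 12 against 2 months, 2 rose and 1 fell at 24 against 2 months, and 0 were called at 24 against 12 months. Slc4a2, the chloride/bicarbonate exchanger, Slc12a7, a potassium chloride cotransporter, and Car2, a carbonic anhydrase, were called in no comparison. Slc4a8, a sodium-driven chloride/bicarbonate exchanger, rose in both comparisons with 2 months. Its counts were 0, 1 and 0 in the young libraries, 25, 51 and 11 in those of 12 months, then 4, 10 and 31 in those of 24 months. These counts are too few for a fold of any precision, and leaving out 2-month replicate 3 gave an adjusted p of 0.0516 at 12 months and 0.0681 at 24 months. The call also ended without 12-month replicate 2 (adjusted p = 0.0506) at 12 months, and without 2-month replicate 1 (0.0569), 2-month replicate 2 (0.05) or 24-month replicate 3 (0.0742) at 24 months.

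Atp1b1, the beta-1 subunit that carries the catalytic subunit of Na+/K+-ATPase to the membrane (ENSMUSG00000026576, chr1:164437109-164458355, minus strand), was lower at 24 than at 2 months. Its level was 15.1, 11.2 and 15.3 CPM at 2 months (mean 13.9 ± 2.34), 15.5, 14.9 and 10.2 at 12 months (mean 13.5 ± 2.94), and 6.63, 8.87 and 9.58 at 24 months (8.36 ± 1.54). All 3 libraries of 24 months lay below all 6 younger ones. Against 2 months the log2 fold change was -0.73 (SE 0.19, a fold of 0.603, adjusted p = 0.0217). Against 12 months it was -0.69 (SE 0.19, adjusted p = 0.0602), and 12 months differed from 2 months by -0.04 (adjusted p = 0.934).

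The call of Atp1b1 at 24 against 2 months held in 13 of 20 alternatives. It ended, with adjusted p = 0.0623, 0.08 and 0.0634, when 2-month replicate 1, 2-month replicate 3 or 24-month replicate 1 was left out. It also ended with totals that leave out the 10 most abundant genes (0.0901), with replicate number as a block (0.0507) and without the 3 salivary-rich libraries (0.178). With library totals alone as the scale its log2 fold change was -0.42 (adjusted p = 0.252), in a fit where the median over all genes was 0.31. Against 12 months Atp1b1 was called in 4 of 20 alternatives. These were DESeq2 (adjusted p = 0.0114), voom (0.0442), no count filter (9.21e-05) and the fit without 12-month replicate 3 (0.0243). Exons of Atp1b1 and of Nme7 on the other strand share 575 bases, and reads there cannot be assigned without strand, which is not given in the sources used here. Nme7 itself held 40 to 145 counts per library.

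Kcnn4 and Atp1b1 were the called members whose first 250 bases before the RefSeq start lie outside annotated exons, and those windows are shown with the letters of any motif match in capitals. The motifs searched, on both strands, were the GC box (GGGCGG), the CCAAT box (CCAAT), the TATA box (TATAAA), the AP-1 site (TGANTCA), the cAMP response element (TGACGTCA) and an E-box (CAGCTG). The windows, read 5′ to 3′ in the direction of the gene from the RefSeq promoter table of GRCm38.p6, are chr7:24370013-24370262 on the plus strand and chr1:164458356-164458605 on the minus strand.
Kcnn4: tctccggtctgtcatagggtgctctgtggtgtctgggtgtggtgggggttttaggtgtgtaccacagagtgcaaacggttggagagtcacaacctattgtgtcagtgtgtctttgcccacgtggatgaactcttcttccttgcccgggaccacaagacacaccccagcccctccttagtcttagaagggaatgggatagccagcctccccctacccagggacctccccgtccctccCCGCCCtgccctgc
Atp1b1: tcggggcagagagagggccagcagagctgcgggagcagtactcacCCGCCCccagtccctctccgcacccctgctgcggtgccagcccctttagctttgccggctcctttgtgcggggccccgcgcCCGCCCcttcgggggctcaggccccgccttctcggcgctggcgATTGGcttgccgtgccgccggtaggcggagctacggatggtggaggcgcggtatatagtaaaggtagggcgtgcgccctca

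The Kcnn4 window held 1 GC box and the Atp1b1 window 2 GC boxes and 1 CCAAT box, all on the strand opposite to the letters listed. Among 32851 such windows, 32.7% held a GC box, 33.8% a CCAAT box, 12.4% a TATA box, 6.75% an AP-1 site, 1.55% a cAMP response element and 13.0% the E-box. Bases G and C made up 58.8% of the Kcnn4 window and 70.4% of the Atp1b1 window. A match is a description of the letters and not evidence of a bound factor. Windows of 8 of the 9 members were searched, and Slc12a2 was left out of the search.

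Of 12 further genes of the pump 10 were tested, with 1 higher and 1 lower at 12 against 2 months, 3 higher and 0 lower at 24 against 2 months and 0 called at 24 against 12 months. Fxyd3, a FXYD regulator of the pump, was lower at 12 than at 2 months by a log2 fold change of -0.71 (adjusted p = 0.0239). That call ended in 7 of 20 alternatives. At 24 against 2 months its log2 fold change was -0.46 (adjusted p = 0.0812 by edgeR), which was called by DESeq2 (0.0362) and without 2-month replicate 1 (0.0414). Atp1b3, the beta-3 subunit, lay at 58.6 to 99.7 CPM over the 9 libraries, with a log2 fold change of 0.10 at 24 against 2 months (adjusted p = 0.729). Per kilobase Atp1b3 was the higher of the beta subunits in these glands, with a mean over 9 libraries of 31.4 RPKM against 3.87 RPKM for Atp1b1. Fxyd5, a small membrane protein that binds the pump, was higher at 24 than at 2 months by 1.27 on the log2 scale (adjusted p = 0.00334) in all 20 alternatives. At 12 against 2 months it was higher by 1.11 (adjusted p = 0.0105), a call that ended when 2-month replicate 2, 2-month replicate 3 or 12-month replicate 2 was left out (adjusted p = 0.0629, 0.0532 and 0.0554).

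Ano1, the calcium-activated chloride channel of the apical membrane (ENSMUSG00000031075, chr7:144588549-144751974, minus strand), was higher at 24 than at 2 months. Its level was 23.2, 17.1 and 19.6 CPM at 2 months (mean 19.96 ± 3.09), 20.8, 23.0 and 23.2 at 12 months (mean 22.3 ± 1.3), and 23.7, 26.2 and 31.7 at 24 months (27.2 ± 4.1). The 24-month libraries lay above all 6 younger ones, though 24-month replicate 1 exceeded the highest of them by less than the SD of any age. Against 2 months the log2 fold change was 0.45 (SE 0.13, a fold of 1.36, adjusted p = 0.0343), and against 12 months it was 0.29 (adjusted p = 0.258). The call held in 12 of 20 alternatives. It ended without 2-month replicate 2 (adjusted p = 0.135), 2-month replicate 3 (0.103), 24-month replicate 2 (0.0614) or 24-month replicate 3 (0.13). It also ended with replicate number as a block (0.0592) and without the 3 salivary-rich libraries (0.201). The adjusted p was 0.05 in a fit of the 6 libraries alone and 0.0562 without the 2 muscle-rich libraries.

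Cftr (ENSMUSG00000041301, chr6:18170687-18322768, plus strand) was near the limit of detection at every age. Its counts were 5, 1 and 3 in the young libraries, 1, 2 and 0 in those of 12 months, then 0, 2 and 0 in those of 24 months. The 3 libraries at 0 allow up to 0.0682, 0.0786 and 0.0604 CPM (12-month replicate 3, 24-month replicates 1 and 3). The summed counts of 9, 3 and 2 gave a ratio of 12 to 2 months of 0.266 (exact Clopper-Pearson 95% interval 0.0463 to 1.07). That of 24 to 2 months was 0.185 (0.0195 to 0.894). Both intervals cover counting error only, not the spread between libraries, and PCR copies are not independent molecules.

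Of 21 other genes of chloride and bicarbonate exit 17 were tested. At 12 against 2 months 1 rose, at 24 against 2 months 2 rose, at 24 against 12 months 2 rose, and 0 fell. Lrrc8d, a subunit of the volume-regulated anion channel, was higher at 24 than at 2 months by 0.98 on the log2 scale (adjusted p = 0.000871), in all 20 alternatives. Against 12 months it was higher by 0.75 (adjusted p = 0.00801), and by 0.74 with library totals alone (adjusted p = 0.0676). Leaving out the 2 muscle-rich libraries, which leaves 1 library of 12 months, ended that call at a log2 fold change of 0.69. Ano6, a calcium-activated lipid scramblase of the Ano1 family, was higher at 24 than at 2 months by 0.48 (adjusted p = 0.0256). That call ended without 2-month replicate 2 (adjusted p = 0.0837), 2-month replicate 3 (0.0855), 24-month replicate 2 (0.0848) or 24-month replicate 3 (0.0597). Per kilobase Ano6 was below Ano1, at 0.792 to 1.28 RPKM against 2.74 to 5.08 RPKM.

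For the regulators of the cAMP route that opens Cftr, 17 of 18 genes were tested. At 12 against 2 months 1 rose and 2 fell, at 24 against 2 months 2 rose, and at 24 against 12 months 2 rose. Adcy7, an adenylyl cyclase known from immune cells, was higher at 24 than at 2 months by 1.82 on the log2 scale (adjusted p = 0.00633), and by 1.91 without the 3 salivary-rich libraries (adjusted p = 0.0516). The part of immune cells in its level was not tested.

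Kcnn4, the intermediate-conductance calcium-activated potassium channel (ENSMUSG00000054342, chr7:24370263-24386690, plus strand), was higher at 12 than at 2 months by the widest margin among the members tested. Its level was 40.3, 51.6 and 32.8 CPM at 2 months (mean 41.6 ± 9.46), 71.5, 82.2 and 96.6 at 12 months (mean 83.4 ± 12.6), and 36.7, 49.96 and 76.3 at 24 months (54.3 ± 20.2). The libraries of 12 months lay above all 3 of 2 months. Those of 24 months spread from within the young range into the 12-month range. Between 2 and 12 months its log2 fold change was 1.01 (SE 0.23, a fold of 2.01, adjusted p = 0.0222). That of 24 against 2 months was 0.39 (SE 0.23, adjusted p = 0.283) and that of 24 against 12 months -0.62 (SE 0.23, adjusted p = 0.164). Without 24-month replicate 3 the last of these was -0.94 (adjusted p = 0.0298).

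The call of Kcnn4 held in 14 of 20 alternatives. It ended without 2-month replicate 1 (adjusted p = 0.0627), 2-month replicate 3 (0.0944), 12-month replicate 2 (0.076) or 12-month replicate 3 (0.0553). It also ended without the 3 salivary-rich libraries, where the log2 fold change was 0.87 (0.291). Leaving out the 2 muscle-rich libraries, which leaves 1 library of 12 months, ended it at a log2 fold change of 0.98. Kcnn4 is also known from lymphocytes and red cells. The B and T cell markers summed to 122, 177 and 25.8 CPM in 12-month replicates 1, 2 and 3, and all 12 of them rose at 12 months. Kcnn4 was highest in replicate 3, where that sum was lowest. The part of immune cells in the 12-month level of Kcnn4 was not tested.

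Kcnma1, the pore subunit of the large-conductance calcium- and voltage-activated (BK) channel (ENSMUSG00000063142, chr14:23289431-24014491, minus strand), was lower at 24 months than at both younger ages. Its level was 22.1, 21.2 and 21.5 CPM at 2 months (mean 21.6 ± 0.468), 22.3, 22.8 and 23.0 at 12 months (mean 22.7 ± 0.344), and 18.2, 16.7 and 15.3 at 24 months (16.7 ± 1.48). Every 24-month library lay below all 6 younger ones, whose levels spanned less than 2 CPM. For 24 months it was lower by a log2 fold change of -0.37 against 2 months (SE 0.09, a fold of 0.774, adjusted p = 0.016) and -0.44 against 12 months (SE 0.09, a fold of 0.736, adjusted p = 0.0161). That of 12 against 2 months was 0.07 (adjusted p = 0.69). Exons of Kcnma1 and of 4930519K11Rik on the other strand share 1016 bases, and 4930519K11Rik held 1 to 17 counts per library.

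With library totals alone the log2 fold change of Kcnma1 at 24 against 2 months was -0.08 (adjusted p = 0.66), in the fit whose median over all genes was 0.31. With totals that leave out the 10 most abundant genes it was -0.19 (adjusted p = 0.167), with a median of 0.19. The ratio of Kcnma1 to Aqp5, which needs no scaling, fell on average by 0.29 on the log2 scale from 2 to 24 months, with overlap between the ages. Without 24-month replicate 3 the log2 fold change of Kcnma1 at 24 against 2 months was called no longer (adjusted p = 0.0682). Against 12 months the call ended without 12-month replicate 2 (0.0582), 12-month replicate 3 (0.0584), 24-month replicate 2 (0.0552) or 24-month replicate 3 (0.0653). Leaving out the 2 muscle-rich libraries, which leaves 1 library of 12 months, ended it at a log2 fold change of -0.43. Smooth muscle also expresses Kcnma1. The sum of 10 myoepithelial and smooth muscle markers was 199, 242 and 222 CPM at 2 months, 160, 157 and 174 at 12 months, then 228, 216 and 223 at 24 months. The part of smooth muscle in the level of Kcnma1 was not tested.

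Of 23 other potassium channels and subunits 12 were tested, with 0 called at 12 against 2 months, 1 higher and 1 lower at 24 against 2 months, and 1 higher at 24 against 12 months. Lrrc26, the gamma subunit that lets BK channels open near resting voltage in secretory epithelia, was lower at 24 than at 2 months by a log2 fold change of -0.58 (adjusted p = 0.0252). Its level was 134 to 263 CPM over the 9 libraries, and its value at 12 against 2 months was -0.49 (adjusted p = 0.0795 by edgeR). At 12 months it was called by DESeq2 (0.0144), by voom (0.0483), with no count filter (0.00417) and without 12-month replicate 3 (0.0257). Leaving out 2-month replicate 2, 24-month replicate 1 or 24-month replicate 2 ended the 24-month call (adjusted p = 0.108, 0.0635 and 0.0756). So did leaving out the 3 salivary-rich libraries (-0.62, adjusted p = 0.151). With library totals alone the value at 24 against 2 months was -0.26 (adjusted p = 0.28). Per kilobase Lrrc26 averaged 145 RPKM over all libraries, above Kcnma1 at 1.2 RPKM. The beta subunit gene Kcnmb1, of smooth muscle, lay at 0.0452 to 0.734 CPM and was called in no comparison, and Kcnmb4 was too low to test.

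Aqp5, the apical water channel (ENSMUSG00000044217, chr15:99590782-99594829, plus strand), had the narrowest range of ages in proportion to its level and was called in no comparison. Its level was 261, 307 and 271 CPM at 2 months, 281, 246 and 285 at 12 months, then 253, 263 and 275 at 24 months (264 ± 11.1). The 3 ages overlapped. At 24 against 2 months the log2 fold change was -0.08 (95% interval -0.36 to 0.19, adjusted p = 0.668). That of 12 against 2 months had a 95% interval of -0.32 to 0.23.

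Of 10 other aquaporins 8 were tested, and 1 was called in any pair of ages. It was Aqp9, a glycerol and water channel, lower at 24 than at 2 months by a log2 fold change of -1.42 (adjusted p = 0.00905). Without the 3 salivary-rich libraries it was -1.10 (adjusted p = 0.109). Aqp1, Aqp3 and Aqp4 were not called. Aqp8, named here after its values were seen because it was the most abundant aquaporin after Aqp5, lay at 65.9, 72.0 and 70.4 CPM at 2 months, 64.6, 61.1 and 76.2 at 12 months, then 61.9, 41.9 and 27.6 at 24 months. Its log2 fold change at 24 against 2 months was -0.67 (adjusted p = 0.0512).

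**Figure D2:**
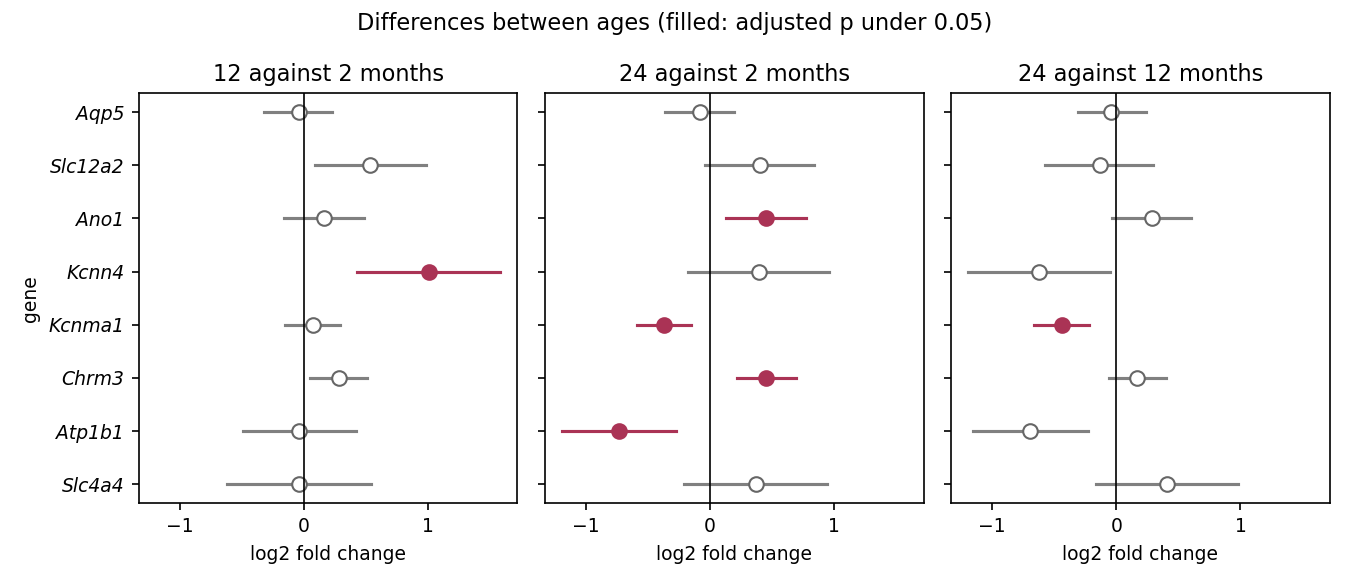
Log2 fold changes of the 8 tested members in the comparisons of 12 against 2, 24 against 2 and 24 against 12 months, with 95% intervals. The intervals use the SE and 6 residual degrees of freedom, and are wider than the edgeR quasi-likelihood test implies. Filled symbols are called at an adjusted p under 0.05. Kcnn4 stands at 1.01 at 12 against 2 months, and at 24 against 2 months Chrm3 and Ano1 stand at 0.45, Kcnma1 at -0.37 and Atp1b1 at -0.73.

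The order of the members per kilobase of exon was led by Aqp5 at a mean of 104 RPKM over 9 libraries, rank 154 among tested genes, against a median of 1.19 RPKM. Kcnn4 followed at 11.7 RPKM. Then came Atp1b1 at 3.87, Ano1 at 3.71, Slc12a2 at 3.23 and Chrm3 at 3.09 RPKM. Kcnma1 at 1.2, Slc4a4 at 0.322 and Cftr at 0.00498 RPKM closed the order. Aqp5 was above Kcnn4, and Kcnn4 above the next member, in all 9 libraries, and the last 3 steps of the order also held in all 9. The 4 middle members were not separated. Atp1b1 exceeded Ano1 in 5 libraries, Ano1 exceeded Slc12a2 in 7 and Slc12a2 exceeded Chrm3 in 6, and the ranges of each of these neighbours overlapped. By the mean of an age, Atp1b1 ranked 3, 3 and 6 at 2, 12 and 24 months, and Ano1 ranked 4, 5 and 3.

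**Figure D3:**
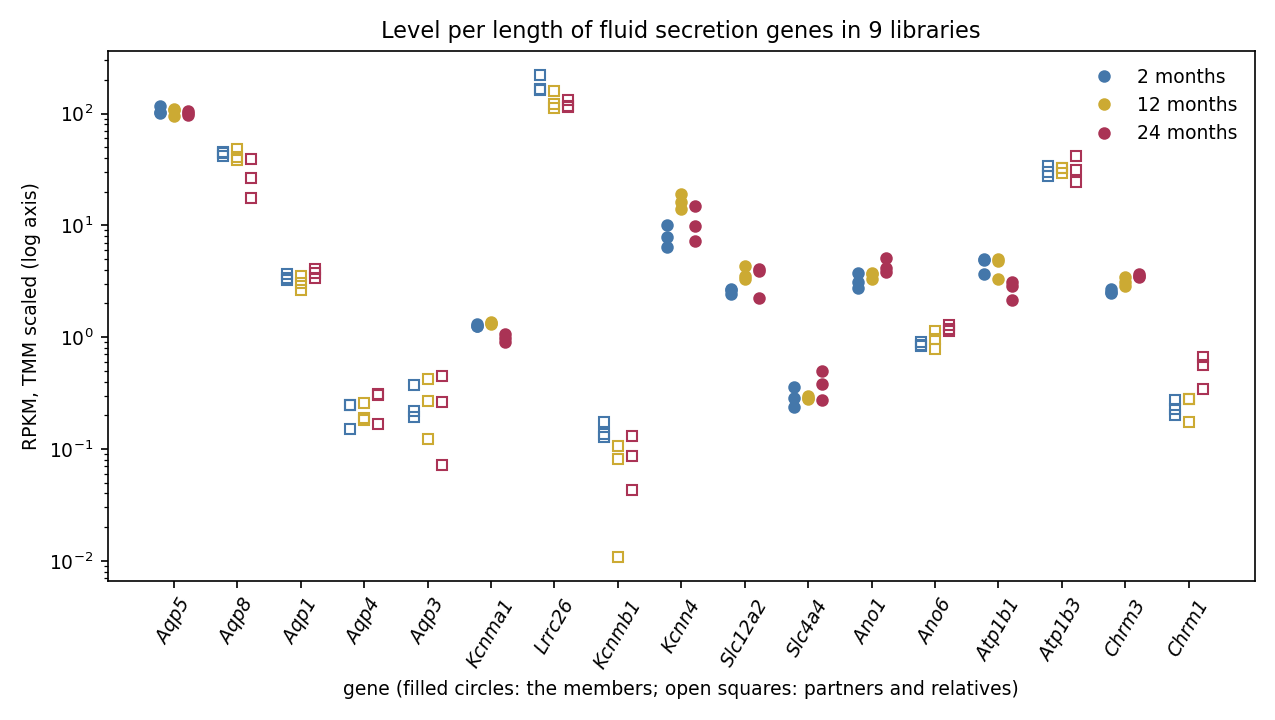
Levels per kilobase in RPKM on a log axis for the members (filled; Cftr is left out) and selected partners (open squares), each symbol 1 library and each colour 1 age. Aqp5 is the highest member at 94.8 to 118 RPKM, Lrrc26 lies above Kcnma1, and Atp1b3 lies above Atp1b1 in all libraries.

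Ratios of genes within a library do not depend on the scaling between libraries, and 5, of which 4 are given, were tested across the 3 ages by an exact permutation test of the F statistic over 1680 arrangements. The smallest p that this design allows is 0.00357. The ratio of Chrm3 to Aqp5 per kilobase was 0.0272, 0.0216 and 0.0238 at 2 months, 0.0286, 0.0303 and 0.0315 at 12 months, then 0.0379, 0.0344 and 0.0325 at 24 months. No pair of ages overlapped, with differences of 0.32 and 0.54 on the log2 scale for 12 and 24 against 2 months (permutation p = 0.00357, the smallest possible, and 0.0179 adjusted over the 5 ratios). Without the 3 salivary-rich libraries the difference of 24 and 2 months was 0.54. There the permutation p was 0.0667 (adjusted p = 0.333), the smallest that 6 libraries allow, so that no call was possible.

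The ratio of Kcnn4 to Kcnma1 was 6.04, 8.07 and 5.08 at 2 months, 10.6, 12.0 and 13.9 at 12 months, then 6.68, 9.94 and 16.6 at 24 months (permutation p = 0.1, adjusted p = 0.167). The 12-month libraries lay above those of 2 months, and those of 24 months overlapped both. The ratios of Slc12a2 to Aqp5 and of Slc4a4 to Slc12a2 had adjusted p-values of 0.188 and 0.257 in the same permutation test. The ratio of Atp1b1 to Aqp5, added after the data were seen and not tested, was 0.049, 0.0307 and 0.0477 at 2 months, 0.0466, 0.051 and 0.0301 at 12 months, then 0.0221, 0.0284 and 0.0294 at 24 months. All 3 libraries of 24 months lay below the 6 others, and from 2 to 24 months the mean fell by 0.65 on the log2 scale. A ratio of Ano1 to Cftr could not be computed, since Cftr was at 0 in 3 libraries.

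**Figure D4:**
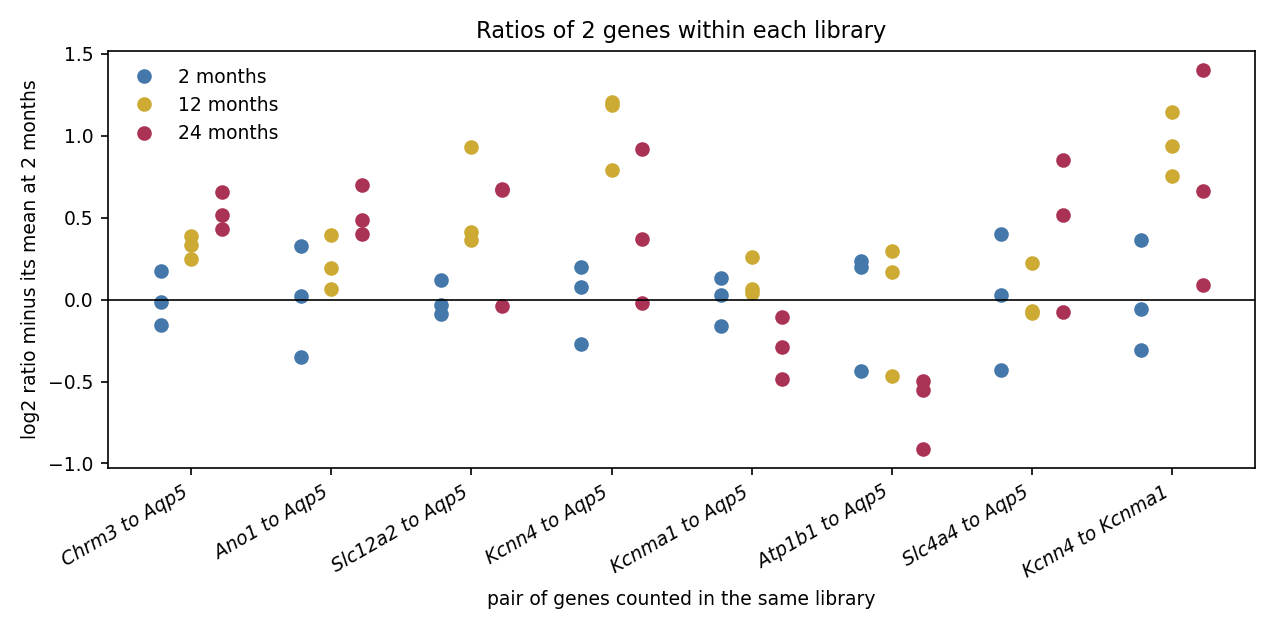
Log2 ratios of gene pairs within each library, minus the mean of the 2-month libraries, at 2, 12 and 24 months; each symbol is 1 library, and the ratios of Ano1, Kcnn4, Kcnma1, Atp1b1 and Slc4a4 to Aqp5 were added after the data were seen and have no test. The ratio of Chrm3 to Aqp5 separates all 3 ages, and that of Atp1b1 to Aqp5 is lower in the 3 libraries of 24 months than in the 6 others.

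Around the secretory cells, 19 of 20 tight junction genes were tested, and 5 of the 13 genes of ductal sodium and proton transport. Of the tight junction genes 2 fell at 12 against 2 months, 2 rose and 2 fell at 24 against 2 months, and 2 rose and 1 fell at 24 against 12 months. Cldn2, a claudin that forms a pore for small cations and water between cells, was higher at 24 months, by 2.91 on the log2 scale against 2 months (adjusted p = 0.000128) and 2.79 against 12 months (adjusted p = 0.000259). Its level lay at 1.5 to 3.46 CPM at 2 months, 2.29 to 3.21 at 12 months and 12.7 to 22.3 at 24 months, and both calls held in all 20 alternatives. Cldn10, another pore-forming claudin, was called in no comparison. Among the ductal genes Atp6v0d2, a proton pump subunit also known from macrophages, was higher by 4.82 at 12 months (adjusted p = 0.000259) and by 4.85 at 24 months (adjusted p = 8.33e-05). It stood at 0.399, 0.0294 and 0.141 CPM at 2 months and at 4.71 to 7.43 CPM in the 6 older libraries. The macrophage markers were also higher in those 6 libraries, and the part of macrophages was not tested. Scnn1a, a subunit of the epithelial sodium channel, was not called by edgeR, at a log2 fold change of -0.62 at 24 against 2 months (adjusted p = 0.109). It was called there by voom (-0.88, adjusted p = 0.0342) and without 24-month replicate 1 (-0.92, adjusted p = 0.0258).

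Over the 11 lists of partner genes together, 156 of 204 genes were tested. At 12 against 2 months 7 rose and 6 fell, 8.33% of those tested against 7.93% of all genes. At 24 against 2 months 19 rose and 8 fell, 17.3% against 17.4%. At 24 against 12 months 8 rose and 2 fell, 6.41% against 4.39%. Without the 3 salivary-rich libraries, 1 of 13, 6 of 26 and 2 of 10 calls of the named partners held in these comparisons. A list had 0 calls in 9 of its comparisons, where 1 or 2 of its genes had an unadjusted p under 0.05 and DESeq2 called 0 or 1.

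The genes whose profile over the 9 libraries was closest to that of a member were ranked by the root mean square difference of centred log2 CPM among 7499 genes of at least 5 CPM. For Aqp5 they were Vrk3 (0.033), Tmem109 (0.036) and Xab2 (0.0404), with a root mean square of 0.0911 for the profile of Aqp5 itself. The 3 closest to Chrm3 included Zfp750 (0.0777) and Tmem175 (0.0835), against 0.202. The 3 closest to Kcnma1 included Ube2q2 (0.0506) and Papss1 (0.0714), against 0.204. The neighbours of Atp1b1, with a profile of 0.411, included Lysmd3 (0.128) and Pprc1 (0.138). Kcnn4, with a profile of 0.525, had the most distant neighbours in Rgr (0.252), Zdhhc18 (0.273) and Lrp2 (0.296).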

How the data were processed

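The authors deposited whole-number read counts per gene for 9 libraries. Per the labels' protocols, total RNA from lysed glands was sequenced as paired 100 bp reads on a BGISEQ500RS. The submitters' processing notes name GRCm38 and, in no order and with no version, STAR, HTSeq, cutadapt, FastQC and DESeq2. The release of the annotation and the strand are not given in these sources. Log2 values that the authors also deposited stayed unused. Symbols and coordinates came from GENCODE M21 for 54165 of 54232 identifiers.

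Differences between ages were fitted on the deposited counts in R 4.3.3 by the quasi-likelihood F test of edgeR 4.0.16 (TMM, filterByExpr with a minimum count of 10, all 9 libraries in 1 model), which kept 14944 genes, with 6 residual degrees of freedom and a common coefficient of variation of 21.2%. Benjamini-Hochberg adjustment covered the whole table of tested genes. The 95% intervals of log2 fold changes used a t quantile (scipy 1.17.1) at the 6 residual degrees of freedom. They are wider than the quasi-likelihood test implies. RPKM used union exon lengths. Ratios were tested by listing all arrangements with numpy 2.4.6, adjusted over 5. The procedure was tested on simulated data. No pair of replicates agreed within sampling noise.

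Named partners were 30 fixed genes and, from each of 11 lists, up to 6 called genes with the smallest p over the 3 ages, of which the text names some, and some items are not reported here. The members and lists were chosen with earlier results of these data known. The alternatives were other scalings and filters, DESeq2 1.42.0, limma 3.58.1 (voom), the replicate block, subsets of libraries and each library left out.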

Additional observations from a re-analysis of the deposited data

How the results depend on the processing

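Every call of a member kept its direction in all 20 alternatives. The number of members called at 12 against 2 months, 1 in the report, was 3 with library totals alone or without the 10 most abundant genes, 2 with no count filter, with DESeq2 or with only the 6 libraries compared, and 0 without the 3 salivary-rich or the 2 muscle-rich libraries; with single libraries left out it ranged from 0 to 2. At 24 against 2 months, 4 became 6 with no count filter, 3 with only the 6 libraries compared or without the muscle-rich ones, 2 with either total, 2 with the replicate block and 0 without the salivary-rich libraries, and 2 to 4 with single libraries left out. At 24 against 12 months, 1 became 0 with library totals and without either set of libraries, 3 with no filter and 2 with DESeq2 or voom, and 0 to 1 with single libraries left out. For the 3 ages together, 4 became 0 without the salivary-rich and 2 without the muscle-rich libraries, and 1 to 5 with single libraries left out. Without the salivary-rich libraries 2 libraries per age remain, and 127, 626 and 170 of all genes were called in the 3 comparisons. The muscle-rich exclusion leaves 12 months with 1 library, assumed to vary like the other ages. The Chrm3 to Aqp5 difference was 0.54 with the replicate block and 0.46 to 0.62 with single libraries left out. With the block the permutation test has fewer arrangements, and its adjusted p was 0.139. The ratio rose from 2 to 12 to 24 months in each replicate number, so no such arrangement separates the ages more. Replicate numbers did not pair the libraries: same-numbered deviations correlated at -0.22 to 0.15, and 0 of 9 libraries correlated best with their own number. With exon lengths of the longest transcript, Slc12a2 moved from place 5 to 3 and Atp1b1 from 3 to 5 in the order per kilobase. Among the named partner genes, 1 of 13 calls at 12 against 2 months, 8 of 26 at 24 against 2 months and 4 of 10 at 24 against 12 months held without each library in turn.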
